A study of Homo sapiens with 6 samples.

Results

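The 10 genes followed here belong to the endoplasmic reticulum (ER) unfolded protein response, measured in T47D cells under hypoxia. They were taken by symbol from the gene counts, and all 10 were found among the 27754 genes counted and passed the filter on low counts, as did 15657 genes in all. ERN1, ATF6 and ATF6B are stress sensors, HERPUD1, EDEM1, SEL1L and SYVN1 work in ER-associated degradation, and CALR, CANX and PDIA4 fold secretory proteins. Under hypoxia, ERN1, HERPUD1 and SEL1L rose, and the other 7 did not pass the test in the main fit, which has condition as its only term. Of all tested genes 30.4% rose and 29.1% fell, so the share of members that rose was close to that of all genes. With the replicate number as a block, CANX also passed as higher (log2-fold change 0.25) and ATF6B as lower (−0.22). In that fit 36.6% of all tested genes rose and 35.2% fell. ERN1 rose 2.71-fold, HERPUD1 2.46-fold and SEL1L 1.47-fold.

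T47D is an established luminal human breast cancer cell line that expresses the estrogen receptor. Total RNA was taken from T47D cells grown as adherent cultures in RPMI medium with fetal bovine serum, and stranded mRNA libraries were sequenced, 3 from normoxia (20% O2) and 3 from hypoxia (0.5% O2, 48 h). The labels give no time for normoxia, for which the study's text gives the same time, and that text gives another oxygen level for hypoxia. The labels name no added gene or deletion, and they do not say whether the replicates came from separate cultures. The study describes its experiments, the RNA sequencing among them, as independent, without saying what differed between the replicates, and p-values measure the spread between these libraries.

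The unfolded protein response is the programme by which a cell answers unfolded proteins in the ER. IRE1, the product of ERN1, is a kinase and endoribonuclease that splices XBP1 mRNA so that it encodes an active transcription factor, and it also degrades a set of ER-bound mRNAs. ATF6 and its relative ATF6B are membrane-bound transcription factors that move to the Golgi under stress, where the site-1 and site-2 proteases (MBTPS1 and MBTPS2) release their active ends. PERK (EIF2AK3) is the third sensor and acts through eIF2α and ATF4. Active XBP1 and ATF6 bind ER stress elements before the starts of chaperone and degradation genes.

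Promoter sequences of members were read from RefSeq (GRCh38.p14) to show which of them hold such elements in the 250 bases before a listed start. All 10 members were in the table. The ER stress element (ERSE), spelled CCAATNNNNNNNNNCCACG, was found in CALR and CANX, and its variant ERSE-II, spelled ATTGGNCCACG, in HERPUD1. Both strands were searched. Capitals mark the ends of the element, which in CALR runs on the strand opposite to the gene.
HERPUD1, chr16:56932005-56932055, plus strand: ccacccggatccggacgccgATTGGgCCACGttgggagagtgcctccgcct
CALR, chr19:12938364-12938422, plus strand: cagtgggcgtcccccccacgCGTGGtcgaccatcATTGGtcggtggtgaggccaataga
CANX, chr5:179698773-179698801, plus strand: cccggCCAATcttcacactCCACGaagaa

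ERSE was present before 0.141% of the 11350 tested genes with a promoter in the table, and ERSE-II before 0.123%. RefSeq lists several starts for CANX, and the element lies before only some of them. The XBP1-type element TGACGTGG was found in 0 members and in 0.96% of the tested genes. The last 120 bases before the starts of ERN1 and SEL1L, the other members that rose, are shown for comparison, with capitals on matches to CCAAT or to GCGTG in either orientation.
ERN1, chr17:64130145-64130264, minus strand: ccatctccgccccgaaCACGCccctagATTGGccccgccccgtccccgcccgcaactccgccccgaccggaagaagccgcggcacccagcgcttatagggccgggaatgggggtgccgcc
SEL1L, chr14:81533854-81533973, minus strand: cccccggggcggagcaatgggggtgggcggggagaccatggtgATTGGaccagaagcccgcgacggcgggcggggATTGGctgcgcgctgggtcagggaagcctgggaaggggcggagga

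Neither of these 2 genes holds an exact match to the ERSE, ERSE-II or XBP1-type spelling in the 250 bases searched. Elements with other letters or farther from the start were not searched for. The hypoxia response core ACGTG was present in 4 of 10 members and in 28.2% of tested genes, and GCGTG in 7 of 10 members and in 51.9% of tested genes. CCAAT was present in 8 of 10 members against 41% of tested genes, and CCACG in 7 of 10 against 50.9%. The ERSE-II of HERPUD1 overlaps an ACGTG match. Matches describe letters and do not show binding.

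Sequencing depth was 32989104 to 40943424 counts in normoxia, and 34640756 to 89883409 counts in hypoxia, where replicate 3 was deepest. All 10 of the genes written down as a check of hypoxia rose, among them VEGFA, a secreted angiogenic factor (log2-fold change 4.36), and CA9, a carbonic anhydrase (5.29). Of 9 luminal markers, 0 rose and 4 fell (ESR1, PGR, GATA3 and FOXA1). All 9 together came to 13960 to 18120 CPM in normoxia and 10190 to 13470 CPM in hypoxia, where CPM are counts scaled to a common library size after TMM normalisation. Most of that sum was KRT8, KRT18 and KRT19 (means 5801, 2378 and 3415 CPM in normoxia, 4070, 1853 and 3329 CPM in hypoxia), none of which passed the test. The basal or mesenchymal markers summed to 75.4 to 95.5 CPM in normoxia and 107 to 135 CPM in hypoxia, with 1 of 6 tested higher (AXL). Most of this was CD44 (means 60.95 CPM in normoxia and 85.57 CPM in hypoxia), which did not pass the test. Of 8 leukocyte, endothelial and fibroblast markers, 2 could be tested and 0 passed the test. Summed levels were 84.8 to 96.5 CPM in normoxia and 78.2 to 102 CPM in hypoxia, and PDGFRA had 0 counts in all libraries. Nearly all of this sum was COL1A1 (83.9 to 95.1 CPM in normoxia, 76.9 to 99.1 CPM in hypoxia). The libraries numbered 3 stood apart. The mesenchymal gene VIM was read 7 and 12 times in normoxia replicates 1 and 2 but 395 times in replicate 3. In hypoxia it was read 35, 35 and 1001 times. Many results below are therefore also given without replicate 3, but not the tests of ratios. Replicates 1 and 2 were nearer each other (chi-square per degree of freedom 8.47 in normoxia, 6.38 in hypoxia) than either was to replicate 3 (36.6 to 72.6). Fits without replicate 3 thus rest on 2 similar libraries a condition, and their p-values leave out the spread that replicate 3 adds. In bulk RNA, fewer cells with a transcript and less of it per cell cannot be told apart.

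Of the 15657 genes tested, 30.4% were called higher and 29.1% lower (adjusted p under 0.05, edgeR quasi-likelihood test with Benjamini-Hochberg adjustment). Among the 10 members, 3 were higher and 0 lower, so the share that rose was close to that of all genes. With the replicate number as a block, 4 members were higher and 1 lower, against 36.6% and 35.2% of all genes. Without replicate 3, 5 were higher and 2 lower, against 36.4% and 34.8%. The median size of the log2-fold change was 0.21 over the members and 0.47 over all genes. CPM in the 2 conditions did not overlap for 5 of 10 members, against 67.3% of all genes, and 7 of 10 changed in one direction in every same-numbered pair, against 82.9%.

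**Figure D1:**
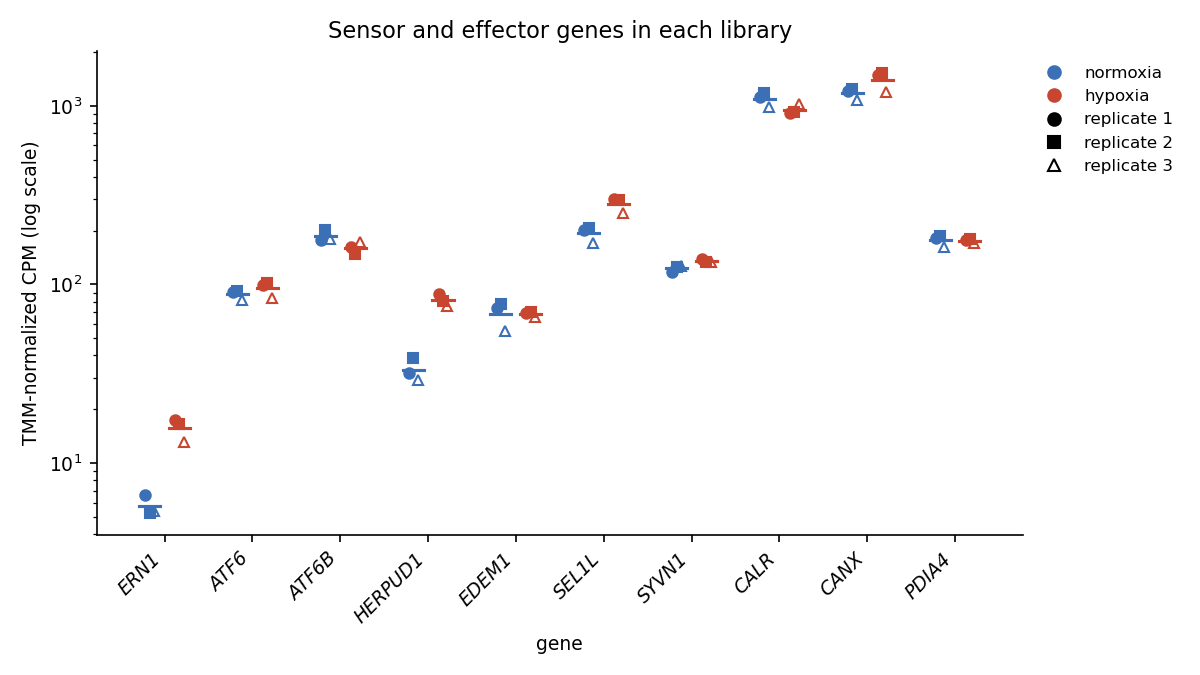
CPM of each of the 10 genes in each library on a log axis, with normoxia and hypoxia side by side, the symbol of a point giving its replicate number and the bar the mean of 3 libraries. For ERN1, HERPUD1, SEL1L, SYVN1 and ATF6B the 2 conditions do not overlap.

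Of the sensors, ERN1 showed the largest change. Its CPM in replicates 1, 2 and 3 were 6.66, 5.27 and 5.36 under normoxia, then 17.4, 16.5 and 13.1 under hypoxia. Every hypoxia library was above every normoxia library, and hypoxia replicate 3 was the lowest of its group. The mean rose from 5.76 ± 0.780 to 15.7 ± 2.27 CPM (SD, n = 3), which is 1.44 as a log2-fold change (SE 0.16, adjusted p = 0.000260, edgeR). These values rest on 166 to 263 counts in normoxia and 605 to 1197 in hypoxia, the fewest of any member. Leaving out single libraries or a replicate number gave log2-fold changes of 1.33 to 1.55, all past the threshold. ERN1 lies at chr17:62120390-62207502 on the minus strand of GRCh37, the build of the files and of all gene positions given here.

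Neither ATF6 nor ATF6B passed the test in the main fit. ATF6 (chr1:161736034-161933860, plus strand) had 91.1, 92.0 and 81.7 CPM in normoxia and 98.8, 102 and 84.4 CPM in hypoxia. The conditions overlapped, with replicate 3 lowest in each, and the log2-fold change was 0.11 (95% interval −0.12 to 0.33, adjusted p = 0.364). Without replicate 3 it was 0.14 (adjusted p = 0.0536).

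ATF6B (chr6:32083045-32096017, minus strand) had 178, 202 and 180.0 CPM in normoxia and 162, 148 and 173 CPM in hypoxia. All hypoxia values lay below all normoxia values, by a narrow margin. The log2-fold change was −0.22 (95% interval −0.42 to −0.010, adjusted p = 0.0666), and it passed the test with the replicate block (−0.22, adjusted p = 0.0358) and without replicate 3 in both conditions (−0.29, adjusted p = 0.00164) or in hypoxia alone (−0.28). The files also place ATF6B on 3 alternative haplotypes of chromosome 6, and how reads matching several places were counted is not given in the sources used here.

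The 2 factors were also compared within libraries. The log2 ratio of ATF6 to ATF6B was −1.08 ± 0.096 in normoxia and −0.76 ± 0.26 in hypoxia (SD, n = 3), a difference of 0.32 with overlapping conditions (two-sided exact permutation p = 0.20, adjusted p = 0.20 over the 3 ratios computed). With 3 libraries a side, 0.10 is the smallest p this test allows. Within same-numbered pairs the ratio was higher in hypoxia by 0.26, 0.60 and 0.10, in 3 of 3 pairs, and a two-sided exact permutation of signs within pairs gave p = 0.25 for this ratio and for the other 2 ratios described below, the smallest it allows. Per kilobase of exon, ATF6B stood at 71.3 CPM in normoxia, ATF6 at 11.7 and ERN1 at 1.44, the lowest level of the 10 genes.

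Among the degradation genes, HERPUD1 changed most. It encodes a membrane protein of the ER that helps to assemble the HRD1 ubiquitin ligase complex, and the ERSE-II printed above lies before its start. Its CPM were 31.8, 38.6 and 29.3 in normoxia and 88.9, 80.7 and 75.5 in hypoxia. The groups were far apart, and each hypoxia library was above the normoxia library of its number. The mean rose from 33.2 ± 4.85 to 81.7 ± 6.80 CPM (SD, n = 3), which is 1.30 as a log2-fold change (SE 0.12, adjusted p = 0.000148, edgeR). Its leave-out range was 1.20 to 1.42, past the threshold throughout. HERPUD1 lies at chr16:56966002-56977793 on the plus strand.

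SEL1L, the adaptor that holds the HRD1 ligase complex together, had 202, 208 and 171 CPM in normoxia and 302.0, 298.0 and 251 CPM in hypoxia. Replicate 3 was lowest in both conditions, and its hypoxia value was still above every normoxia value. The mean rose from 193 ± 20.0 to 284 ± 28.5 CPM (SD, n = 3), which is 0.55 as a log2-fold change (SE 0.11, adjusted p = 0.00319, edgeR), with 0.47 to 0.63 when libraries were left out. SEL1L lies at chr14:81937891-82000205 on the minus strand.

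SYVN1 encodes HRD1 itself, the ubiquitin ligase that SEL1L stabilises. It had 118.0, 126 and 127 CPM in normoxia and 138, 133 and 133 CPM in hypoxia. The hypoxia values were higher in each library without overlap, though by little. The log2-fold change was 0.12 (95% interval −0.036 to 0.28, adjusted p = 0.156), and without replicate 3 it was 0.16 (adjusted p = 0.0311). SYVN1 (chr11:64894751-64902003, minus strand) shares 91 exon bases, 2.98% of its exon length, with MRPL49 on the opposite strand, and the strand setting of the counting is not given in the sources used here.

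The log2 ratio of SEL1L to SYVN1 was 0.64 ± 0.19 in normoxia and 1.07 ± 0.14 in hypoxia (SD, n = 3), a difference of 0.43 without overlap (two-sided exact permutation p = 0.10, adjusted p = 0.15). EDEM1, a lectin that directs misfolded glycoproteins to degradation, had 73.4, 78.0 and 54.6 CPM in normoxia and 69.2, 69.9 and 65.4 CPM in hypoxia. The conditions overlapped, with the normoxia library of replicate 3 the lowest of the 6. The log2-fold change of EDEM1 (chr3:5229359-5261650, plus strand) was −0.012 (95% interval −0.31 to 0.29, adjusted p = 0.944), and −0.12 without replicate 3 (adjusted p = 0.122).

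**Figure D2:**
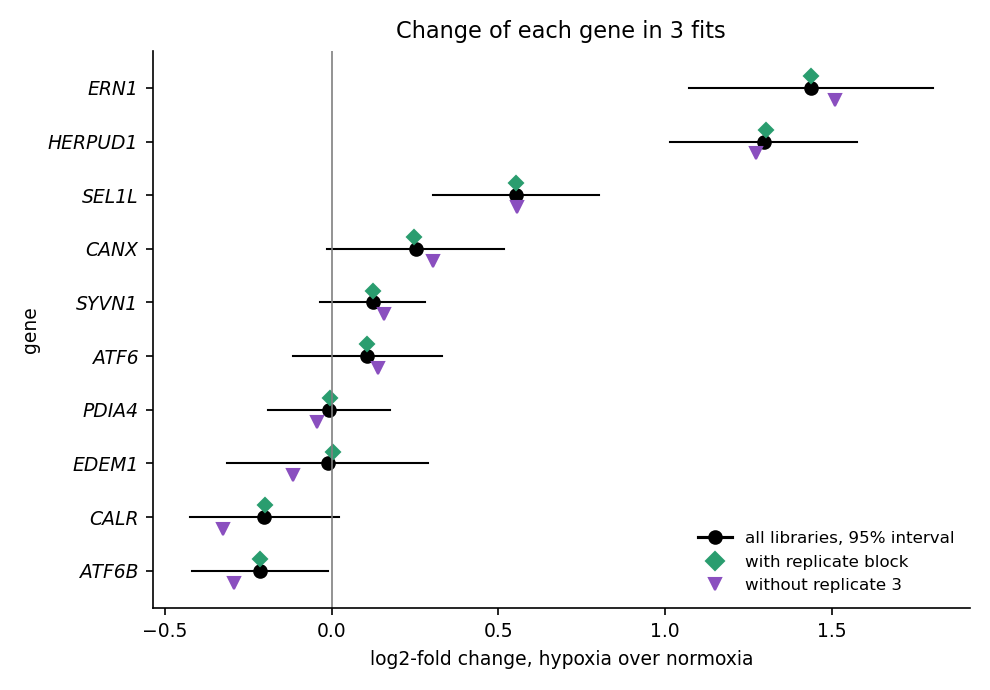
Log2-fold change of each gene, hypoxia over normoxia, with its 95% interval (black), with the replicate block (green diamond) and without replicate 3 (purple triangle). ERN1, HERPUD1 and SEL1L stand clear of 0 in each, and EDEM1 and PDIA4 stay near 0 except that EDEM1 is −0.12 without replicate 3.

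Of the folding genes, none passed the test in the main fit. CALR, the soluble calcium-binding lectin of the ER, had 1118, 1178 and 983 CPM in normoxia and 907, 918 and 1026 CPM in hypoxia. Replicates 1 and 2 were lower in hypoxia and replicate 3 was higher. The log2-fold change of CALR (chr19:13049414-13055304, plus strand) was −0.20 (95% interval −0.42 to 0.021, adjusted p = 0.104). CALR passed without replicate 3 in both conditions (−0.33, adjusted p = 0.000164), in normoxia alone (−0.28) or in hypoxia alone (−0.26). With only replicates 1 and 2 left in both conditions, its SE fell from 0.097 to 0.058.

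CANX, its membrane-bound counterpart (chr5:179125930-179158639, plus strand), had 1212, 1238 and 1080 CPM in normoxia and 1485, 1531 and 1187 CPM in hypoxia. Each pair was higher in hypoxia, but hypoxia replicate 3 lay below normoxia replicates 1 and 2. The log2-fold change was 0.25 (95% interval −0.014 to 0.52, adjusted p = 0.0918), and it passed the test with the replicate block (0.25, adjusted p = 0.00524) and without replicate 3 in both conditions (0.31, adjusted p = 0.000288) or in hypoxia alone (0.35). Both genes hold an ERSE in the promoter sequences printed above, and their log2-fold changes have opposite signs.

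The log2 ratio of CALR to CANX was −0.11 ± 0.032 in normoxia and −0.55 ± 0.30 in hypoxia (SD, n = 3), a difference of −0.45 without overlap (two-sided exact permutation p = 0.10, adjusted p = 0.15). In hypoxia the ratio was −0.71 and −0.74 in replicates 1 and 2 and −0.21 in replicate 3. PDIA4, a protein disulfide isomerase that forms and rearranges disulfide bonds (chr7:148700154-148725782, minus strand), had 182, 188 and 162 CPM in normoxia and 178, 179 and 171 CPM in hypoxia. Its conditions overlapped (log2-fold change −0.0084, 95% interval −0.19 to 0.17, adjusted p = 0.934).

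**Figure D3:**
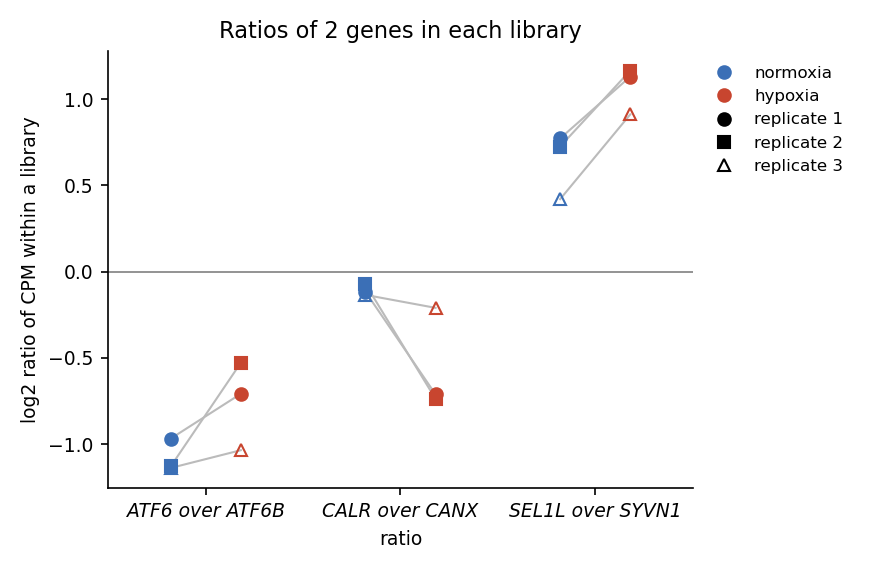
Log2 ratio of CPM of ATF6 to ATF6B, CALR to CANX and SEL1L to SYVN1 in each library, with lines joining libraries of the same number. In each same-numbered pair ATF6 to ATF6B and SEL1L to SYVN1 are higher in hypoxia and CALR to CANX is lower, and replicate 3 shows the smallest fall of CALR to CANX.

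Per kilobase of exon, the order of mean levels in normoxia was CALR (572 CPM per kb), CANX (238), ATF6B (71.3), PDIA4 (60.0), SYVN1 (40.5), SEL1L (22.5), HERPUD1 (17.3), ATF6 (11.7), EDEM1 (11.2) and ERN1 (1.44). The libraries of SEL1L and HERPUD1 overlapped, as did those of ATF6 and EDEM1. In hypoxia HERPUD1 stood at 42.5 CPM per kb, above SEL1L at 33.1 and overlapping SYVN1 at 44.1, while ERN1 stayed lowest at 3.91. CALR and CANX made up 71.8 to 72.5% of the summed CPM of the 10 genes in normoxia and 69.4 to 70.5% in hypoxia.

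The rest of the pathway was described by 7 lists written with earlier results of these data known. Over all genes, 30.4% rose and 29.1% fell in the main fit, 36.6% and 35.2% with the replicate block, and 36.4% and 34.8% without replicate 3. Of 15 tested sensor and regulator genes of the IRE1 and ATF6 arms, 4 rose and 4 fell (median log2-fold change −0.14, against 0.03 over all genes). With the replicate block 8 fell and the same 4 rose, and 7 fell without replicate 3. XBP1, whose mRNA is the substrate of IRE1, fell from 1495, 1653 and 1437 CPM to 1026, 1006 and 793 CPM (log2-fold change −0.70, adjusted p = 0.00160). Gene counts cannot separate its spliced and unspliced forms. RTCB, the ligase that joins the cut ends of XBP1 mRNA, fell by 0.95 on the log2 scale (adjusted p = 0.000264), CREB3L4, a relative of ATF6, fell by 0.68, and CREB3L2, another relative, rose by 0.61. NFYB, a subunit of the CCAAT-binding factor NF-Y, rose by 0.36.

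The Golgi proteases that cleave ATF6 did not pass the test in the main fit. MBTPS1 had 649, 731 and 593 CPM in normoxia and 745, 726 and 777 CPM in hypoxia (log2-fold change 0.19, adjusted p = 0.115), with overlapping conditions. Of the leave-out settings it passed the test without normoxia replicate 2 (0.25). MBTPS2 changed by −0.14 on the log2 scale, which did not pass the test (adjusted p = 0.135) except with the replicate block (adjusted p = 0.0408). EIF2AK3, which encodes PERK, had 23.9, 26.2 and 22.8 CPM in normoxia and 32.9, 32.9 and 26.0 CPM in hypoxia (log2-fold change 0.33, adjusted p = 0.0401), with hypoxia replicate 3 inside the normoxia range. That call held only without hypoxia replicate 3 or without replicate 3 in both conditions and was lost in the other 7 of the 9 leave-out settings (0.27 to 0.37), and the difference between ERN1 and EIF2AK3 was not tested.

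Of the 24 tested genes of the ER Hsp70 and Hsp90 chaperone system, 8 rose and 8 fell (median 0.03). HSPA5, the chaperone BiP that holds the sensors inactive, had 1067, 1171 and 969 CPM in normoxia and 1504, 1548 and 1176 CPM in hypoxia (log2-fold change 0.40, adjusted p = 0.0252), a call lost without replicate 1, replicate 2, normoxia replicate 1 or 3, or hypoxia replicate 1 or 2 (0.32 to 0.51 over the leave-out settings). HSP90B1, the chaperone GRP94, rose by 0.60 (adjusted p = 0.00837). CDNF, a secreted neurotrophic factor of the ER, rose by 1.58 and DNAJB9, a BiP cochaperone that represses IRE1, by 0.67, while SDF2L1 fell by 1.17, CRELD2 by 1.03 and SDF2 by 0.55 on the log2 scale.

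Of 13 tested genes of the calnexin and calreticulin cycle, to which CALR and CANX belong, 3 rose and 2 fell (median 0.04). With the replicate block 6 rose, and MOGS (−0.21) joined MLEC and UGGT1 among those that fell. Without replicate 3, 6 rose and 4 fell. CLGN, calmegin, a relative of CANX best known from testis, rose from 0.810 ± 0.101 to 17.3 ± 3.23 CPM (SD, n = 3), which is 4.40 as a log2-fold change (adjusted p = 2.06e-05). MCFD2, a cargo receptor subunit, rose by 0.28 and UGGT2, a folding sensor of glycoproteins, by 0.24, but the MCFD2 call was lost without replicate 1, replicate 2, normoxia replicate 2 or 3, or hypoxia replicate 1 or 2 (0.24 to 0.31 in these), and the UGGT2 call held only without replicate 3 or normoxia replicate 2 (0.19 to 0.29 over the leave-out settings). UGGT1, the main folding sensor, fell by 0.46 and MLEC, a lectin, by 0.53 on the log2 scale.

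Of 27 tested protein disulfide isomerase and ER oxidation genes, 6 rose and 6 fell (median −0.03). With the replicate block 10 rose, and PDIA6 (−0.15) and ERP27 (−0.88) joined those that fell. Without replicate 3, 10 rose as well. Calls grew in both settings over all genes too, to 36.6% higher and 35.2% lower with the block and 36.4% and 34.8% without replicate 3. ERO1A, the oxidase that recharges PDI, rose from 106, 102 and 93.3 CPM to 399, 441 and 364 CPM (log2-fold change 2.00, adjusted p = 2.39e-05). PDIA2 rose by 1.86 and QSOX1, a sulfhydryl oxidase, by 1.47. AGR2, a PDI family member expressed in luminal cells, fell from 723, 684 and 553 CPM to 215, 187 and 163 CPM (log2-fold change −1.80), its neighbour and paralog AGR3 fell by 1.42 and TMX2 by 0.59 on the log2 scale. AGR2 and AGR3 fell beside the luminal marker sum given above, whose part in the result was not tested.

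Of 41 tested ER-associated degradation genes, which include HERPUD1, SEL1L, SYVN1 and EDEM1, 9 rose and 12 fell (median −0.05). Beside the 2 members that rose, OS9, a lectin that works with SEL1L, rose by 0.46, NGLY1, which removes glycans from degraded proteins, by 0.64, and ATXN3, a deubiquitinase, by 0.77. VCP, the ATPase that pulls substrates out of the membrane, fell from 386, 358 and 428 CPM to 189, 169 and 221 CPM (log2-fold change −1.02, adjusted p = 0.000302), its cofactor NPLOC4 fell by 0.89 and the deubiquitinase YOD1 by 0.80 on the log2 scale.

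Of 19 tested genes of the translocon and signal peptide processing, 4 rose and 7 fell (median −0.06). SSR3 fell by 0.68, SEC61B by 0.65 and SRPRA by 0.58 on the log2 scale, while TRAM2, SEC11C and SEC61G rose by 0.33, 0.31 and 0.26. Without replicate 1 in both conditions, 8 further calls of named genes were lost with directions kept, those of NFYB (0.31), DNAJB9 (0.60), HSP90B1 (0.58), UGGT1 (−0.42), OS9 (0.44), TRAM2 (0.36), SEC61B (−0.66) and HGSNAT (0.46). The SEC11C call held only without replicate 3 in both conditions or in hypoxia (0.23 to 0.40 over the leave-out settings), and the SEC61G call was lost without replicate 1, replicate 2, normoxia replicate 1 or 2, or hypoxia replicate 1 or 2 (0.20 to 0.28 in these). Of 7 tested genes reported elsewhere as substrates of IRE1 mRNA decay, 4 rose and 1 fell (median 0.45), against 30.4% and 29.1% of all genes. Those that rose include PDGFRB and PMP22, which had few reads. PDGFRB had 0 to 3 counts in normoxia and 14 to 28 in hypoxia, and PMP22 4 to 5 and 30 to 58. BLOC1S1 (log2-fold change −0.18) and SPARC (0.21) did not pass the test. COL6A1 rose by 2.65 and HGSNAT by 0.45, and SCARA3 fell from 111, 106 and 107 CPM to 30.0, 27.0 and 37.8 CPM (log2-fold change −1.77, adjusted p = 5.96e-05).

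**Figure D4:**
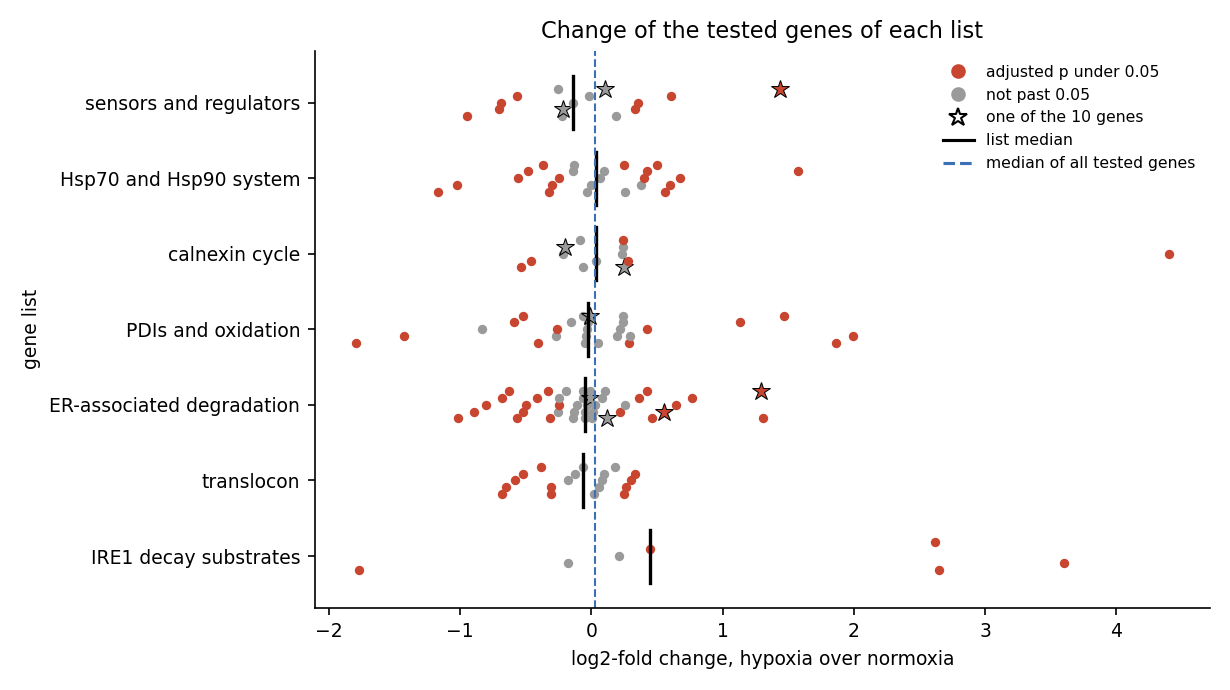
Log2-fold change of every tested gene in the 7 lists, with red points past an adjusted p of 0.05, stars for the 10 members, a black line at the median of each list and a dashed line at the median of all genes (0.03). The list medians lie between −0.14 and 0.45, and each list holds points called on both sides of 0.

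The scaling of the libraries shifts these splits. Of all calls, 51.1% were higher with TMM, 64.5% with upper-quartile factors and 61.0% with library size alone, and the median over all genes moved from 0.03 to 0.19 and 0.14 on the log2 scale. Under upper-quartile factors 5 members rose and 0 fell, against 38.1% and 21.0% of all genes, with CANX (0.41) and SYVN1 (0.28) added to ERN1, HERPUD1 and SEL1L. With library size alone 5 rose and 0 fell, against 35.9% and 23.0% of all genes. The direction of a small change is thus relative to that shift.

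By Euclidean distance of centred log2 CPM over the 6 libraries, over the 12664 candidates that averaged 100 counts or more, the gene nearest to ERN1 was CCDC17 (distance 0.078), followed by ZNF699 and TSPYL2. HERPUD1 was nearest to ZNF862 (0.11), ZC2HC1C and ZNF229, and SEL1L to C1orf115 (0.056), EBLN3P and POLR3C.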

How the data were processed

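T47D cells from 3 normoxia and 3 hypoxia samples were profiled by RNA sequencing. Reads were trimmed by the authors with Skewer, mapped to GRCh37 (hg19) with STAR and assigned to genes with featureCounts, and the deposited values are raw counts. The submitters' processing notes name FastQC 0.11.5, STAR 2.5.2a and featureCounts 1.5.1. The strand setting and the handling of reads with several matches are not given in the sources used here.

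Groups were taken from the labels. Genes were kept by filterByExpr (minimum count 10, minimum total count 15), and 15657 of 27754 genes were tested in R 4.3.3 with edgeR 4.0.16 (TMM, quasi-likelihood test, condition as the only term, all 6 libraries, Benjamini-Hochberg adjustment at 0.05). The exact test of edgeR, used in the study, which calls its samples paired, was an alternative. The scripts were tested on simulated data. CPM are TMM-normalised, and levels between genes are per kilobase of exon in the files. Log2 ratios within a library were compared by exact permutation, of conditions and of signs within same-numbered pairs. Promoters came from RefSeq (GRCh38.p14) and protein sequences were not used here.

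Deviations from the group means were shared between same-numbered libraries (correlations across genes 0.34, 0.42 and 0.58). The main fit does not use this pairing, so a fit with the number as a block was run beside it. No pair of libraries agreed within sampling noise. Depth of 32989104 to 89883409 counts makes counting error small against the spread between libraries except for the lowest genes. Alternatives were DESeq2 1.42.0, the exact test, RLE and upper-quartile factors, library size only, a minimum of 1 count, the block, and each library or number left out.

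The members and gene lists were chosen with earlier results of these data known. The named genes were all members, up to 3 genes each way per list with the largest change among called genes averaging 100 counts or more, the sensors' partners XBP1, HSPA5, HSP90B1, EIF2AK3, MBTPS1 and MBTPS2, the hypoxia checks VEGFA and CA9, and VIM. For the 3 members with the largest change, the 3 nearest genes were listed. MRPL49, PDGFRA, AXL and the luminal markers that fell were named after their values were seen.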

Additional observations from a re-analysis of the deposited data

How the results depend on the processing

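ERN1, HERPUD1 and SEL1L kept their direction and their side of the threshold under all 7 alternatives and in all 9 settings that left libraries out. With DESeq2, 1 member fell, ATF6B (log2-fold change −0.23), against 30.6% of all genes, and with RLE factors also 1, ATF6B (−0.23), against 29.6%. Upper-quartile factors raised 5 members (38.1% of all genes), with CANX at 0.41 and SYVN1 at 0.28, and turned EDEM1 to 0.14, PDIA4 to 0.15 and MBTPS2 to 0.017. With these factors 5 calnexin cycle genes and 10 disulfide isomerase and oxidation genes rose, against 38.1% of all genes. Under the same factors 4 Hsp70 and Hsp90 system genes, 7 degradation genes and 4 translocon genes fell, against 21.0% of all genes. With library size only, 5 members rose (CANX 0.37, SYVN1 0.24), EDEM1 was 0.10 and PDIA4 0.11. In that setting 5 calnexin cycle genes rose, and 5 Hsp70 and Hsp90 system genes and 4 translocon genes fell. Of all genes, 35.9% rose and 23.0% fell. These scalings shift the median of all genes. VIM turned to −0.051 under the exact test and −0.0011 with RLE factors. The UGGT2 call was lost under the exact test and with a minimum of 1 count (0.24 in each). MBTPS1 passed the test with upper-quartile factors (0.34) and library size only (0.30), and also with TMM without normoxia replicate 2 (0.25). The causes of the other changes were not tested.

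With the replicate block, 36.6% of all genes rose and 35.2% fell. Of members, 1 fell, ATF6B (−0.22), CANX passed the test (0.25), and EDEM1 was 0.0048. In the lists, 8 sensor and regulator genes fell, while ERN1, NFYB, CREB3L2 and EIF2AK3 rose. Of calnexin cycle genes 6 rose, while UGGT1, MOGS and MLEC fell. Of disulfide isomerase and oxidation genes 10 rose, while PDIA6 and ERP27 joined those that fell. The lists of Hsp70 and Hsp90 system, degradation and translocon genes gained calls as well. MBTPS2 also passed, and the block changed no other call of a named gene.

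Leaving out libraries reduces the samples fitted, and the 9 settings gave these ranges. Over all genes, 2648 to 5751 were higher and 2191 to 5506 lower. As shares of the tested genes, these ran from 16.9% and 13.9% without replicate 1 to 36.4% and 34.8% without replicate 3. The counts of members and list genes that follow are to be read against these shares. Of members, 3 to 5 rose and 0 to 2 fell, with the highest counts without replicate 3. Of sensor and regulator genes, 2 to 4 rose and 3 to 7 fell. Of Hsp70 and Hsp90 system genes, 3 to 9 rose and 4 to 8 fell. Of calnexin cycle genes, 1 to 6 rose and 1 to 4 fell. Of disulfide isomerase and oxidation genes, 4 to 10 rose and 4 to 9 fell. Of degradation genes, 4 to 10 rose and 7 to 15 fell. Of translocon genes, 0 to 5 rose and 2 to 8 fell. Of decay substrates, 2 to 5 rose. Apart from the 5 decay substrates without normoxia replicate 3, the highest counts of risen and fallen genes came without replicate 3, in some lists equalled by other settings. The lowest came without replicate 1, in some lists equalled by others. Calnexin cycle genes that rose numbered 1 also without replicate 2, normoxia replicate 3, or hypoxia replicate 1 or 2, and translocon genes that rose numbered 1 without replicate 2, normoxia replicate 1 or 2, or hypoxia replicate 1 or 2. Log2-fold changes ranged from −0.29 to −0.10 for ATF6B, −0.16 to 0.073 for EDEM1, 0.074 to 0.16 for SYVN1, −0.33 to −0.12 for CALR, 0.18 to 0.35 for CANX, −0.075 to 0.021 for PDIA4 and −2.25 to 4.14 for VIM. With 2 libraries left in a condition, the spread is poorly measured. Without replicate 3 the SE of every member was smaller than in the main fit (CANX 0.058 against 0.115). Small changes that passed there are to be read with caution.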
